A study of Mus musculus with 2 samples.

Results

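Glycan-building enzymes of 2 mouse mesoangioblast clones, D16 and D351, were compared: glycosyltransferases, which add sugars to proteins and lipids, and the enzymes that place or remove sulfate groups on glycosaminoglycan chains. Members were chosen by symbol and, for a stretch of chromosome 4, by position. A probe set of the Affymetrix MG-U74B array counted if its annotation named exactly 1 gene and that symbol began with Galnt, B3gal, B3gnt, B4gal, St3gal, St6gal, St8sia, Fut and a digit, Mgat, Alg and a digit, Chst, Chsy, Hs2st, Hs3st, Hs6st, Ndst, Ext, Xylt or Sulf. Genes of the chromosome 4 run between Acer2 and Svbp were left out, which removed 3 genes (Alg6, B4galt2 and St3gal3). This gave 85 of the 12411 probe sets that are not controls, for 62 of 7542 named genes.

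Mesoangioblasts are progenitor cells associated with embryonic vessels that can form several mesodermal tissues. Both clones were grown from the dorsal aorta of C57BL6 embryos at day 9.5. The tissue was held for 5 days in explant culture and cloned by limiting dilution in RPMI with 20% fetal calf serum. Both clones were started over mitomycin C-treated fibroblasts of mouse embryos and later expanded on gelatin, and the labels name no other treatment or genetic change. Each group was therefore 1 clone, represented by 1 RNA sample on 1 array. No spread between cultures could be measured, and no p-value was computed. A difference between these arrays is a difference between 2 RNA samples.

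Glycans are assembled in the endoplasmic reticulum and Golgi by enzymes that act one after another. N-linked glycans start from a lipid-linked precursor, mucin-type O-glycans start with a single N-acetylgalactosamine, and both are then branched, extended and capped. Heparan sulfate and chondroitin or dermatan sulfate are long chains built on proteoglycan core proteins. Their sulfation pattern governs how strongly they bind growth factors, morphogens and matrix proteins.

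The signals are intensity values on a linear scale, summing to 653854 for D16 and 646285 for D351, with equal trimmed means of 40. Values under a floor of 16.8, the median of both arrays pooled, were raised to it before the log2 ratio of D351 over D16 was taken. Where only 1 array reached the floor the ratio is a lower limit and is given as "at least". Where a gene had several probe sets, the brightest on average stood for it. Probe set names with an added letter (_f, _g, _r or _s) mark designs that related transcripts can share or that met relaxed design rules, and the letter is given where such a value is printed. Of the 62 member genes, 39 reached the floor on at least 1 array, and the other 23 were under it on both. For the 1113 genes measured on more than 1 probe set, the log2 ratios of the brightest pair differed with an SD of 0.71, or 0.50 per probe set. That value covers differences between probe sets on the same arrays, measurement noise included, and not differences between cultures. Bacterial hybridisation controls pointed the other way from most members, with a median 1.44-fold higher in D16 over 9 probe sets.

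Past a 2-fold rule, 8 of the 39 measured genes (20.5%) had the higher signal in D351, against 9.49% of the 4922 genes measured on the arrays. They are Sulf1, Galnt18, Galnt16, Chst12, Chst10, Hs6st2, Hs6st1 and Galnt10. A single member, St3gal1, was at least 2-fold higher in D16, which is 2.56%, against 8.57% of all measured genes. The share of all genes includes the chromosome 4 run. The members do not, and B4galt2, left out with that run, was 2.16-fold higher in D16. The median log2 ratio of the members was 0.37 and that of all measured genes was -0.01. In all, 28 members were above 0 and 11 below. For 9 of the 39 (23.1%) the floor was reached on the D351 array alone, and for 0 on the D16 array alone, against 8.96% and 8.45% of all measured genes. Such members had to differ, so the counts and the median describe the set and support nothing by themselves. Of the 30 members that both arrays measured, 4 passed 2-fold towards D351 (8.1% of all genes so measured) and 1 towards D16 (8.42% of all), with a median log2 ratio of 0.13. With the floor at the 75th percentile (53.5), 4 of 24 measured members passed 2-fold towards D351 (7.12% of all genes measured there) and 1 towards D16 (6.34%). With it at the 25th percentile (4.6), 12 of 52 did so towards D351 (11.9%) and 2 towards D16 (11.5%). A 3-fold rule was passed by 4 members towards D351 (3.6% of all measured genes) and 0 towards D16 (2.78%), and a 1.5-fold rule by 15 (19.3%) and 3 (20.4%).

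**Figure D1:**
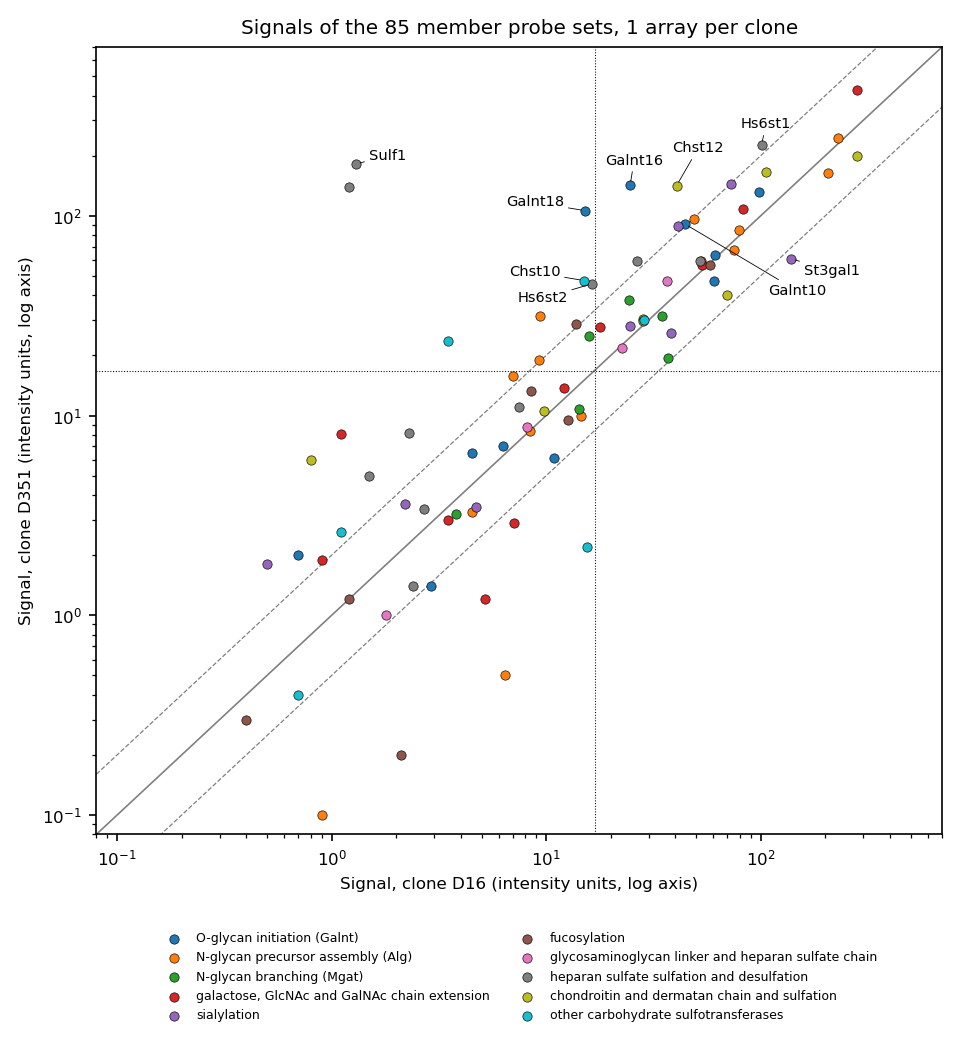
Signals of the 85 member probe sets on the D16 array (x axis) and the D351 array (y axis), in intensity units on log axes, coloured by pathway. The solid line marks equal signals, the dashed lines 2-fold differences and the dotted lines the floor of 16.8; genes past 2-fold on their representing probe set are named, with Sulf1 at 1.3 in D16 and 181.7 in D351.

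Enzymes that add or remove sulfate on heparan sulfate had ratios above 0, towards D351, for all 4 measured genes, from 0.19 on the log2 scale for Hs2st1 to at least 3.44 for Sulf1. Of 8 such genes on the array, 4 were under the floor in both clones. Of the others 3 passed 2-fold towards D351, 2 of them as bounds, where 9.49% of all measured genes passed it. The group's median log2 ratio was 1.30. Sulf1 and the sulfotransferases Hs6st1 and Hs6st2 act on the same position of the chain. Hs6st enzymes place a sulfate on carbon 6 of glucosamine inside the Golgi, and Sulf1 removes it again outside the cell. The transcripts of the adding and the removing enzymes were thus both higher in the same clone.

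Sulf1 read 1.3 in D16 and 181.7 in D351 on its brighter probe set. Its other probe set read 1.2 and 139. Both probe sets were far under the floor in D16 and well over it in D351, giving ratios of at least 10.8-fold and at least 8.27-fold. The bound for Sulf1 follows the floor, with a log2 ratio of at least 3.44 here, of at least 5.30 with a floor at the 25th percentile of signals (4.6) and of at least 1.76 at the 75th (53.5). Sulf2, the second extracellular sulfatase of the family, was under the floor on both arrays at 7.5 and 11. Hs6st1 was over the floor in both clones, at 100.9 in D16 and 226.2 in D351, a 2.24-fold difference. Hs6st2 read 16.4 in D16, just under the floor, and 45.7 in D351, which is at least 2.72-fold higher. Hs6st2 was the only measured member on the X chromosome, whose 140 measured genes had a median log2 ratio of 0.39. With the chromosome median taken off, the log2 ratio of Hs6st2 was 1.05.

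Hs2st1, which sulfates the uronic acid of the chain, gave different answers on its probe sets. One read 52.0 in D16 and 59.5 in D351, and the other read 26.6 and 59.3. Their log2 ratios were 0.19 and 1.16, so Hs2st1 stood past 2-fold on its dimmer probe set alone. Hs3st3a1, Hs3st3b1 and Hs3st4, which add the rare sulfate on carbon 3 of glucosamine, were under the floor on both arrays. Symbols beginning with Ndst, the enzymes that start heparan sulfate sulfation, were not among the members found.

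Of the members past 2-fold towards D351, 6 had a listed promoter. Those of Chst10, Galnt10 and Galnt16 are not printed. The promoters of the 6-O-sulfotransferase pair and of Chst12, which were higher in D351, are shown so that their sequence features can be set side by side. They are taken from RefSeq, build GRCm38.p6, and run from 250 bases before to 50 after a transcript start, on the strand of the gene. The Hs6st1 promoter is chr1:36068150-36068449 on the plus strand. Those of Hs6st2 are chrX:51681553-51681852 and chrX:51680428-51680727 on the minus strand, and that of Chst12 is chr5:140505359-140505658 on the plus strand. Capitals mark matches on either strand to any of 4 short motifs. The TATA box was searched as TATAAA. The CCAAT box was searched by the letters of its name. The GC box was searched as GGGCGG. The MCAT element, bound by TEAD factors in muscle genes, was searched as CATTCC.
Hs6st1: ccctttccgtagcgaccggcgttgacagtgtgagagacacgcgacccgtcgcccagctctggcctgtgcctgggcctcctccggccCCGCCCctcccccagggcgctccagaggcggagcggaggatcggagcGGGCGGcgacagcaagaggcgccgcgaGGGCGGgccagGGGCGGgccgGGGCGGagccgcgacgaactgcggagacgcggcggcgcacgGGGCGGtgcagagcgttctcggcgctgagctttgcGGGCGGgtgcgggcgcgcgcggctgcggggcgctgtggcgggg
Hs6st2, upstream start: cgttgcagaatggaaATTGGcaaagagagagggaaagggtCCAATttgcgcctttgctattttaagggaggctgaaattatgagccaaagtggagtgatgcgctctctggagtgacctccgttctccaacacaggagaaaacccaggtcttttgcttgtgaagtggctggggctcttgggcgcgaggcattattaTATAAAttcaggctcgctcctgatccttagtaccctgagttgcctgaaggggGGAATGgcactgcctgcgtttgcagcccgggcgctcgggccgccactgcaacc
Hs6st2, downstream start: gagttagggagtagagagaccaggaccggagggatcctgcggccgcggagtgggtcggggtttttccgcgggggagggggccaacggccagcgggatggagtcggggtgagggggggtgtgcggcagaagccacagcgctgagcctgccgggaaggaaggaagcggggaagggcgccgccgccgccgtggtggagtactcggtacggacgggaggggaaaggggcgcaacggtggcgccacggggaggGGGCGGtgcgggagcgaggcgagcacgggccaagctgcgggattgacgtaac
Chst12: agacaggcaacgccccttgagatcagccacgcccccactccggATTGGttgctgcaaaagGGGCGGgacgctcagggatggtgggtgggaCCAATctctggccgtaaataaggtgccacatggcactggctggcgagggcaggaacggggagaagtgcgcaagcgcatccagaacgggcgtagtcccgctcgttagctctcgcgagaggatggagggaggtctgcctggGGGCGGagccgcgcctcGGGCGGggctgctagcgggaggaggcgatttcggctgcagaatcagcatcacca

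The promoters differed from one another. Hs6st1 held 7 GC boxes and 47 CG dinucleotides and matched none of the other motifs. The upstream Hs6st2 start held 1 TATA box, 2 CCAAT boxes, 1 MCAT element and 12 CG dinucleotides, and its downstream start held 1 GC box and 33 CG dinucleotides. Chst12 held 3 GC boxes and 2 CCAAT boxes. Promoters were listed for 48 member genes (57 starts, genes of chromosome 18 not counted). Of these 57, 59.6% held a GC box, against 35.7% of all 32851 promoters in the table, and 29.8% held an MCAT element, against 14.7%. A CCAAT box was present in 42.1%, against 37.4%, and a TATA box in 7.02%, against 13.6%. Member promoters had a median of 23 CG dinucleotides, and all promoters, non-coding genes included, a median of 7. The sets compared are unlike, since the motif shares of all promoters also include non-coding genes and chromosome 18 was left out for members alone. Overlapping windows of Galnt16 and of Chst15 are counted separately among the member starts. These matches describe letters in a window and not bound sites.

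The measured enzymes of the linker and of heparan sulfate chain building stayed under 2-fold. B4galt7, which adds the first galactose of the linker that joins glycosaminoglycans to their core protein, read 22.6 in D16 and 21.8 in D351. Extl2, a transferase of the exostosin family, read 36.7 and 47.4, a log2 ratio of 0.37. B3galt6, of the same linker, and Extl1 were under the floor on both arrays.

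Chondroitin and dermatan sulfate enzymes went in both directions. Of 5 genes on the array 4 were measured, around a median log2 ratio of 0.08. Of these, 1 passed 2-fold towards D351 (9.49% of all measured genes) and 0 towards D16 (8.57%). Chst12, which places sulfate on carbon 4 of N-acetylgalactosamine in chondroitin, read 40.5 in D16 and 141.4 in D351, a 3.49-fold difference with both arrays over the floor. Chst14, the 4-O-sulfotransferase of dermatan sulfate, read 105.9 and 166.5, a log2 ratio of 0.65 that did not reach 2-fold. Chsy1, which polymerises the chondroitin chain, had the opposite sign, at 281.2 in D16 and 199.6 in D351 (log2 -0.49). Chst15 adds a further sulfate to an already sulfated N-acetylgalactosamine, and its brightest probe set read 69.8 in D16 and 40 in D351. Its other measured probe sets read 28.2 and 30.4 (a _g probe set) and 28.2 and 29.7. The brightest Chst15 probe set thus had a log2 ratio of -0.80, and the others 0.11 and 0.07. Chsy3 was under the floor on both arrays.

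The remaining carbohydrate sulfotransferases held 1 gene past 2-fold. Chst10, which makes the HNK-1 epitope of neural adhesion molecules, read 15.0 in D16 and 47.4 in D351, at least 2.82-fold higher. Chst1, a galactose 6-O-sulfotransferase of keratan sulfate, read 3.5 and 23.6, at least 1.40-fold higher, a bound that is low because D351 was itself close to the floor. With the floor at the 25th percentile the log2 ratio of Chst1 was at least 2.36. Chst5, an N-acetylglucosamine sulfotransferase, was nearly equal at 28.6 and 30.1, and Chst2 and Chst8 were under the floor on both arrays. Over all sulfotransferases and sulfatases among the members, 5 of 10 measured genes passed 2-fold towards D351, where 9.49% of all measured genes did, and 9 had a ratio above 0, with Chst15 as the exception. Over the glycosyltransferases these numbers were 3 of 29 (10.3%, near the share of all genes) and 19, and the medians of these classes were 0.91 and 0.18. In D16 4 of these 10 and 5 of these 29 genes were under the floor, so their ratios are bounds, among them Sulf1, Hs6st2 and Chst10 of the 5. This division of the members was made after their values were seen.

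**Figure D2:**
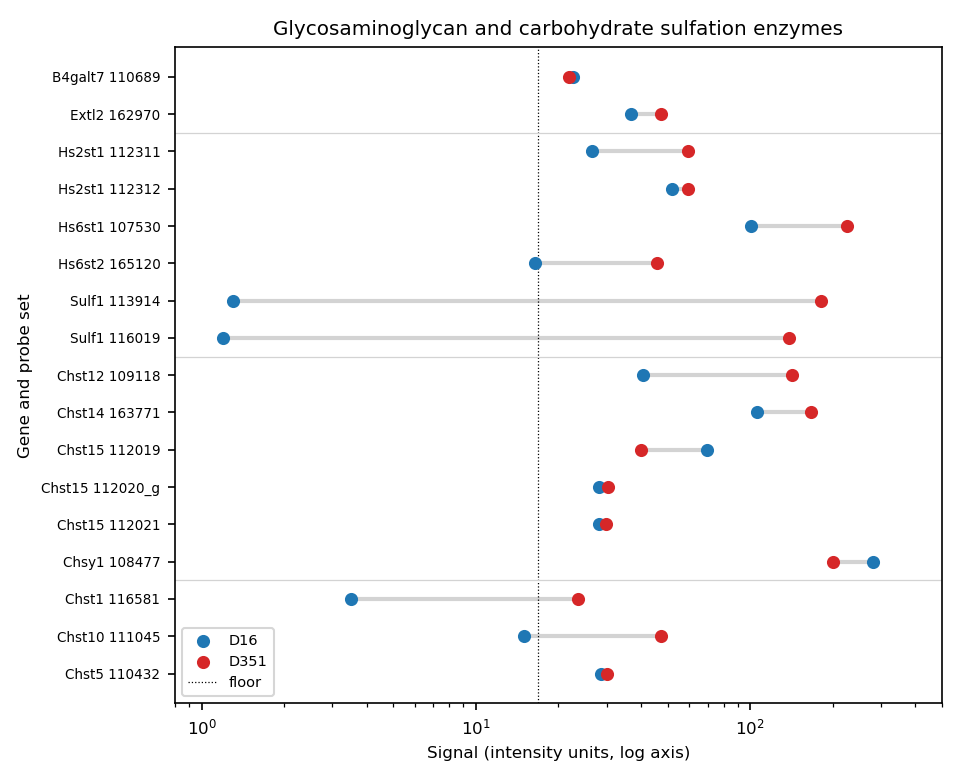
Signals of glycosaminoglycan and carbohydrate sulfation enzymes in D16 (blue) and D351 (red), in intensity units on a log axis, for each probe set at the floor of 16.8 (dotted line) on at least 1 array. Grey bars join the clones; both Sulf1 probe sets span from under 2 to over 100, while the probe sets of Hs2st1 and of Chst15 differ among themselves.

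Enzymes that start mucin-type O-glycans were the other group with large differences. The Galnt family is named for transferases that place N-acetylgalactosamine on serine or threonine and that prefer different peptides. Whether each member has that activity was not measured here. Of 8 Galnt genes on the array, 5 were measured and 3 passed 2-fold towards D351, where 9.49% of all measured genes did. Of these 3, Galnt18 was under the floor in D16. The group's median log2 ratio was 1.04. Galnt16 read 24.6 in D16 and 142 in D351, a 5.77-fold difference with both arrays over the floor. A dimmer Galnt16 probe set was at 0.7 and 2.0 and carried no ratio. Galnt18 read 15.2 in D16 and 106.1 in D351, at least 6.32-fold higher. Galnt10 read 44.3 and 91.0 on an _f probe set (2.05-fold), but 61.3 and 63.3 on an _r probe set. Galnt10 was the member just inside the 2-fold rule. Galnt17 read 98.0 and 131.3, a log2 ratio of 0.42. Galnt6 read 60.6 and 47.1, a log2 ratio of -0.36 and the lowest of the group. Galnt2, Galnt7 and Galnt15 were under the floor on both arrays. Galnt10 was the middle member of the group, so the group's median is its value and was 0.54 with the median over its probe sets. With the floor at the 25th percentile the group's median was 0.42, over 7 measured genes.

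Other O-glycan enzymes gave no ratio past 2-fold at this floor. From that list 16 genes were measured, with a median log2 ratio of 0.30. Of these, 0 passed 2-fold towards D351 (9.49% of all measured genes) and 0 towards D16 (8.57%). C1galt1, which adds galactose to the initiating sugar, read 27.7 in D16 and 35.9 in D351. Its chaperone gene C1galt1c1 read 97.5 and 160.9 (log2 0.72). Among enzymes of O-fucose and O-mannose, Pofut2 had a log2 ratio of 0.98 and Pomt1 one of -0.96, and neither reached 2-fold.

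Enzymes that build the N-glycan precursor on dolichol gave no ratio past 2-fold at the floor of 16.8, but 2 of these ratios are bounds. Of 9 Alg genes on the array 8 were measured, with a median log2 ratio of 0.13. Of these 8, 0 passed 2-fold towards D351 (9.49% of all measured genes) and 0 towards D16 (8.57%). Alg11, a mannosyltransferase of the cytosolic side, was the nearest, at 48.9 in D16 and 96.8 in D351 (1.98-fold). Alg12, a mannosyltransferase of the lumenal side, read 9.4 and 31.5, at least 1.88-fold higher. That bound is set by the floor, and with the floor at 4.6, the 25th percentile, the log2 ratio of Alg12 was at least 1.74. At the other end Alg8, a glucosyltransferase, read 205.6 and 163.9 (log2 -0.33). Alg9, a lumenal mannosyltransferase, had a log2 ratio of -0.15. Alg1, which adds the first mannose, had 0.09. Alg10b, which adds the last glucose, also had 0.09, and Alg14, needed for the second N-acetylglucosamine, had 0.17. Alg2 was measured on a _g probe set alone, at 9.3 and 19.0, with a log2 ratio of at least 0.18, or of at least 1.03 with the lower floor. Alg13 was under the floor on both arrays. Genes of N-glycan transfer and trimming formed a related list. Over 12 measured genes there the median was 0.20. Of these, 1 passed 2-fold towards D351 (9.49% of all measured genes) and 0 towards D16 (8.57%). That gene was Magt1, a subunit of the oligosaccharyltransferase encoded on the X chromosome, at 116.2 and 272.9 on its brightest probe set (2.35-fold). Its other probe sets read 30 and 38.4 (1.28-fold) and 23.1 and 37.8 (1.64-fold). Measured genes of that chromosome had a median log2 ratio of 0.39.

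N-glycan branching enzymes gave no ratio past 2-fold at this floor. Mgat5, which starts the branch on carbon 6 that carries long lactosamine chains, read 24.4 in D16 and 37.7 in D351 (log2 0.63). Mgat5b, its relative that also acts on O-mannose glycans, had the opposite sign at 36.9 and 19.4 (log2 -0.93, or 1.90-fold higher in D16). Mgat4b, a branching enzyme of the other arm, read 34.8 and 31.4. Mgat3, which adds the bisecting sugar, read 15.9 and 25, a log2 ratio of at least 0.57. Mgat4a was under the floor on both arrays. The median of these 4 measured genes was 0.21, and it turned to -0.15 when Mgat3 was left out for lack of a D16 signal over the floor.

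Galactosyltransferases that extend chains had ratios from 0.08 to 0.60. B4galt6 and B4galt5 both make lactosylceramide, from which most glycosphingolipids derive. B4galt6 read 282.3 in D16 and 427.4 in D351 on its brightest probe set and 17.8 and 27.9 on another, so its log2 ratios of 0.60 and 0.65 lay close together. B4galt5 read 82.6 and 107.8, and B4galt4 read 53.3 and 56.4. B3gnt2, B3gnt3, B3gnt5 and B4galnt4 were under the floor on both arrays. Of the genes left out on chromosome 4, B4galt2 read 99.7 in D16 and 46.1 in D351, 2.16-fold higher in D16 and the opposite sign of the other B4galt genes of chain extension. Alg6 and St3gal3 were under the floor.

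Sialyltransferases held the one member past 2-fold towards D16, and a near relative with the opposite sign. St3gal1, which caps the galactose of core O-glycans with sialic acid, read 138.6 in D16 and 61.0 in D351 (2.27-fold higher in D16). St3gal2, which acts on similar O-glycan ends and on gangliosides, read 72.9 and 145 on its brightest probe set (1.99-fold higher in D351) and 41.0 and 88.9 on the other (2.17-fold). St3gal2 was the member just outside the 2-fold rule. The order of the clones was thus opposite for these paralogs, and both St3gal2 probe sets gave the same order. St6galnac4 read 38 and 26 on an _f probe set (log2 -0.55), and its relative St6galnac6 read 24.5 and 28.2 (log2 0.20). St3gal6, St6galnac5 and St8sia6 were under the floor on both arrays. The median of the 4 measured genes was -0.17, a value between members of opposite sign.

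Fucosyltransferases gave a single difference near the floor. Fut10 read 13.7 in D16 and 28.8 in D351, at least 1.71-fold higher. With the floor at 4.6 its log2 ratio was at least 1.07. Fut11 was nearly equal at 57.9 and 56.6. Fut4 and Fut9, which make the Lewis x epitope of stem and neural cells, were under the floor on both arrays.

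**Figure D3:**
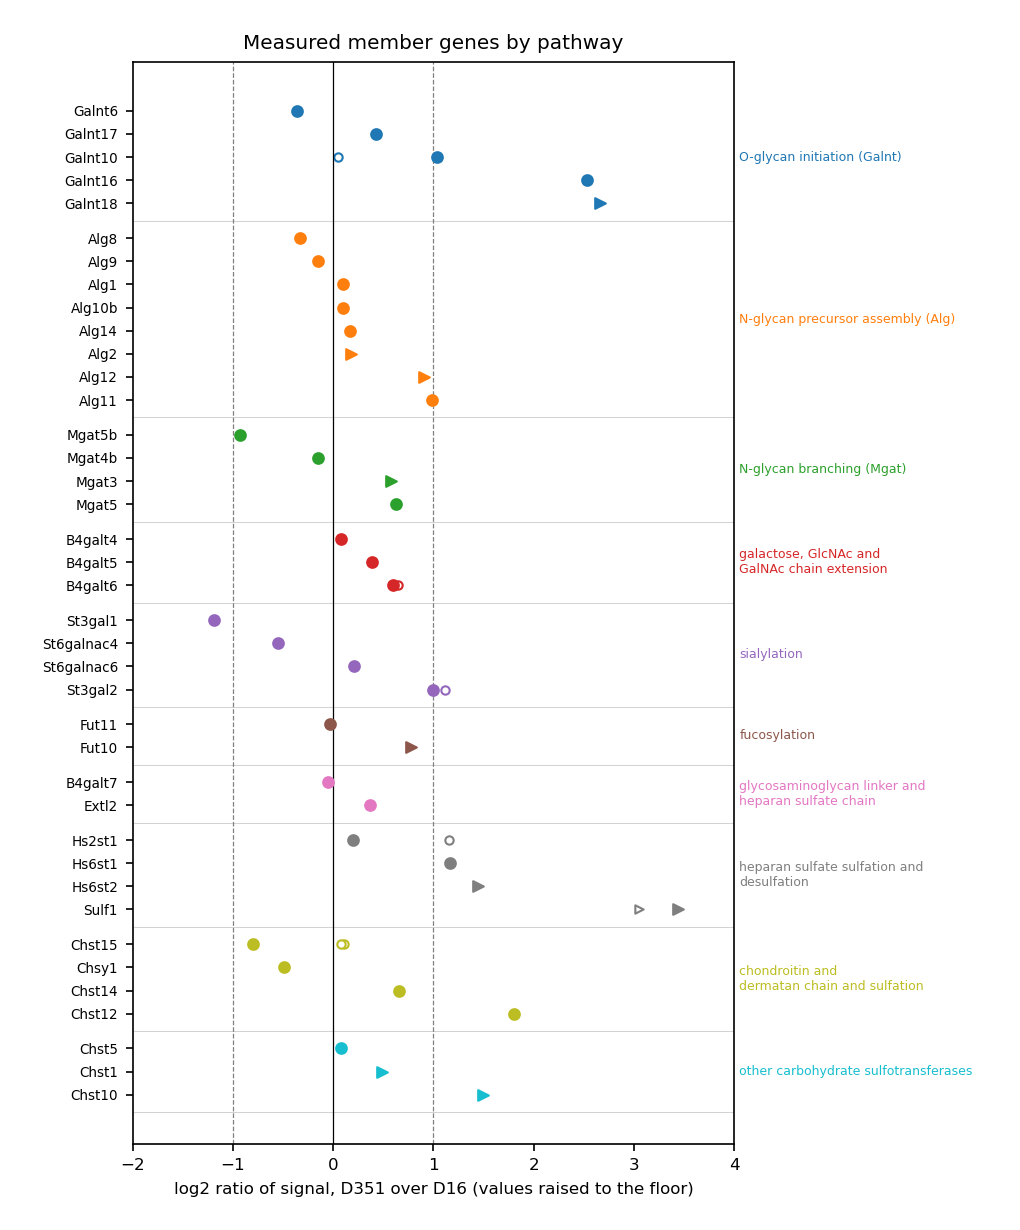
Log2 ratio of signal, D351 over D16, for the 39 measured member genes, grouped by pathway. Filled symbols are the representing probe set, open symbols other measured probe sets, circles values and triangles bounds pointing towards larger differences; dashed lines mark 2-fold, which 8 genes passed towards D351 and St3gal1 passed towards D16.

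The core proteins that carry these chains went both ways. Of 7 measured proteoglycan core genes, 2 passed 2-fold in each direction, around a median log2 ratio of -0.09. Over all measured genes 9.49% passed it towards D351 and 8.57% towards D16. Sdc3, a transmembrane heparan sulfate proteoglycan, read 73.9 in D16 and 328.9 in D351 (4.45-fold). Sdc4, of the same syndecan family, read 130.8 and 29.5 (4.43-fold higher in D16, on an _s probe set). Gpc4, a membrane-anchored glypican, read 43.5 and 89.0 (2.05-fold), and its relative Gpc6 read 124.3 and 183.5. Gpc4 lies on the X chromosome, whose measured genes had a median log2 ratio of 0.39. Cspg4, the chondroitin sulfate proteoglycan NG2 of pericytes, read 83.3 and 26.1 (3.19-fold higher in D16). The syndecans measured thus lay in opposite directions by nearly the same fold.

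Among other glycosaminoglycan enzymes 11 genes were measured, around a median log2 ratio of 0.33. Of these, 2 passed 2-fold towards D351 (9.49% of all measured genes) and 0 towards D16 (8.57%). Pxylp1, a phosphatase that acts on the xylose of the linker during its assembly, read 22.7 in D16 and 142.5 in D351 (6.28-fold). Dse, the epimerase that turns chondroitin into dermatan sulfate, read 45.2 and 142 (3.14-fold). Dse thus had the sign of Chst14 and Chst12, and the opposite sign of Chsy1 and of the brightest Chst15 probe set. Ust, of the same list as Dse, was nearly equal at 63.6 and 64.7 (log2 0.02). Csgalnact2, which starts chondroitin chains, had a log2 ratio of 0.68, and Has2, a hyaluronan synthase, had -0.82. The lysosomal enzymes that degrade these chains went both ways without reaching 2-fold. Ids read 277.8 and 396.2, Sgsh 76.0 and 95.5 and Arsb 293.5 and 315.4, while Galns read 63.4 and 42.3 (log2 -0.58).

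Genes that supply sulfate and activated sugars mostly stayed under 2-fold. The median log2 ratio of 15 measured genes was 0.08. Of these, 1 passed 2-fold towards D351 (9.49% of all measured genes) and 0 towards D16 (8.57%). This was Slc35a5, of the nucleotide-sugar transporter family, at 15.4 and 37.7 (at least 2.24-fold). Gfpt1, which controls entry into hexosamine synthesis, read 301.9 and 478.6 on an _f probe set (log2 0.66) and 110 and 237.5 on another (log2 1.11). Slc35b3, which carries activated sulfate into the Golgi, read 106 and 91.4. From the list of glycolipid enzymes 1 gene besides members was on the array, Gm2a, and it was under the floor.

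**Figure D4:**
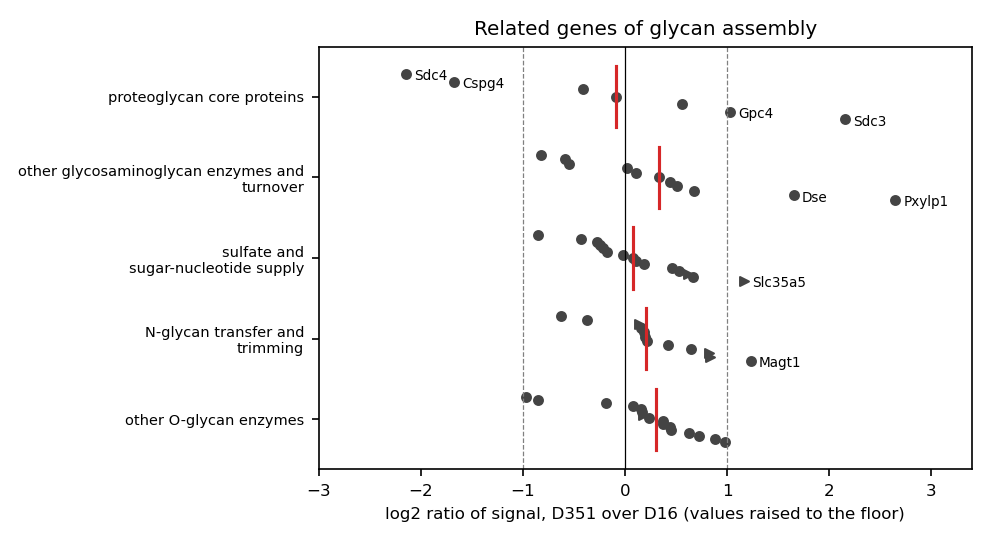
Log2 ratio of signal, D351 over D16, for measured genes of the related lists, 1 row of points per list, with triangles for bounds and red bars for list medians. Dashed lines mark 2-fold; Sdc3 and Sdc4 lie at opposite ends of the proteoglycan row, and Pxylp1 and Dse lead the glycosaminoglycan enzymes.

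Marker genes of the cell types that the cultures could hold differed between the clones as well. Of 21 mesoangioblast, mural and mesenchymal markers listed, 9 were on the array and 6 were measured, with summed signals of 1417 in D16 and 1619 in D351. Cald1 alone made up most of both sums, at 874.9 and 1357.6 (log2 0.63). The median log2 ratio of the 6 measured markers was -1.45. Of these, 4 passed 2-fold towards D16 (8.57% of all measured genes) and 1 towards D351 (9.49%). Alcam (236.7 and 17.7), Cspg4, Grem1 and Gata4 were higher in D16 and Mylk was higher in D351. Eng, Nt5e and Rgs5 were under the floor on both arrays. Embryonic fibroblast markers, which match the feeder cells used in cloning, summed to 997.2 in D16 and 2454 in D351. This covers 6 genes on the array of 18 listed. Of these, 5 passed 2-fold towards D351, where 9.49% of all measured genes did. Prrx1, Cd248, Col5a2, Sfrp1 and Aspn made up the 5, and Tcf4 was higher in D16. Tcf4 read 544.8 in D16 and 205.6 in D351, the largest part of the D16 sum. It was listed by symbol, and its standing as a fibroblast marker was not checked. With 1 array per clone, all genes higher in D351 share that direction, so it ties these markers to no member. The part of feeder cells in these results was not tested. The endothelial marker Flt1 read 10.3 and 44.5, and Esam was under the floor. Runx1, the blood marker on the array, read 45.4 and 61.1. None of the markers on the array read 0, and Ly6a, Thy1, Cd34, Pecam1, Cdh5 and Ptprc were not among the named probe sets. In such bulk RNA, fewer cells of a type and less RNA per cell cannot be told apart.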

How the data were processed

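The deposited table holds 1 intensity value per probe set and array for total RNA of clones D16 and D351 on MG-U74B arrays, as the authors processed it. The software, background correction and presence calls are not given in the sources used here. Both columns share a 2% trimmed mean of 40, so a difference common to all transcripts would not be visible. The number of arrays (1 per clone) limits the precision.

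Gene names came from GEO's platform annotation, and all 62 member genes matched RefSeq (GRCm38.p6) by gene identifier. Of 12411 probe sets that are not controls, 10581 had 1 symbol, 178 several and 1652 none. Controls (66) were left out. Log2 ratios, bounds and the 2-fold rule are as in the results, with no test. Pathways were assigned by symbol, and medians needed 3 measured genes. All members could be named, and related genes if past 2-fold, others as examples chosen after their values were seen. The members and lists were chosen with earlier results of these data known. Alternatives were median scaling, quantile normalization, loess (span 0.3), a lower (25th percentile, 4.6) and a higher floor (75th, 53.5), the floor on both arrays, 1.5-fold and 3-fold rules, a minimum difference, the median over probe sets, and plain probe sets. The ratio code was tested on simulated data. Python 3.11.15, numpy 2.4.6, pandas 2.3.3, statsmodels 0.14.6 and matplotlib 3.10.9 were used.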

Additional observations from a re-analysis of the deposited data

How the results depend on the processing

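No paired analysis was possible because each clone had 1 array. Median scaling, quantile normalization and the loess correction left the count of members at least 2-fold higher in D351 between 8 and 10 and the count in D16 at 1. Of all 4923 genes measured in each of these settings, 454 to 470 passed 2-fold towards D351 and 420 to 432 towards D16. A minimum difference equal to the floor changed no count, since any 2-fold difference over the floor already meets it. Of the 9 members past 2-fold, all but Galnt10 and Galnt18 stayed past it in each setting that measured them. Galnt18 had a log2 ratio of 0.99 with the higher floor. Galnt10 had 0.54 with the median over its probe sets, and it was also under 2-fold with the higher floor and after subtraction of chromosome medians. No single member changed sign among those past 2-fold. Over 324 single-member values under other settings, 8 moved by more than 0.50, the SD per probe set, 7 of them with the floor.

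The floor and the fold rule both moved the counts. At the 25th percentile 12 of 52 members passed 2-fold towards D351 and 2 towards D16, the median of all members was 0.20, and pathway medians were 0.42 (Galnt), 0.38 (chondroitin), 0.83 (heparan sulfate sulfation) and 0.87 (other sulfotransferases). At the 75th percentile 4 members were at least 2-fold higher in D351, with a median of 0.27 over all members and 0.77 over Galnt genes. Restricted to genes over the floor in both clones, the count was 4, the median 0.13, the Galnt median 0.73 and the Mgat median -0.15. A 1.5-fold rule gave 15 and 3 members in D351 and D16 (19.3% and 20.4% of all measured genes), and a 3-fold rule gave 4 and 0 (3.6% and 2.78% of all). With the median over probe sets the Galnt median was 0.54 and the chondroitin median 0.36. With plain probe sets the Galnt median was 1.48 and the sialylation median 0.20, since St6galnac4 was left out. Taking off chromosome medians, a setting chosen after seeing the data, gave 2 members in D16 and a median of 0.51. Of all 4910 genes in that setting, 386 were at least 2-fold higher in D16. Medians were not given where a setting left under 3 measured genes.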

Other observations

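Probe sets of the same gene could be compared for 6 members, and they lay in the same direction in 5. The exception was Chst15, with log2 ratios of -0.80 and 0.11. The pairs of B4galt6 and St3gal2 differed by less than the SD of 0.71 seen over all genes with such pairs, and those of Chst15, Galnt10 and Hs2st1 differed by more. Both Sulf1 ratios are bounds, so the size of their difference carries no information. In Galnt10, Hs2st1 and St3gal2, 1 of the probe sets was past 2-fold and the other was not. For St3gal2 the folds were 1.99 and 2.17, close to each other.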
